A study of Mus musculus with 24 samples.

Results

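The genes described here encode proteins that shape and reseal the membrane of muscle fibres. They are the caveola genes Cav3 and Cavin1 (Ptrf on the array), the repair genes Trim72, Dysf, Myof and Capn3, and the annexin genes Anxa1, Anxa2, Anxa5 and Anxa6. Members were all probes whose platform symbol was CAV3, PTRF, TRIM72, DYSF, MYOF, CAPN3, ANXA1, ANXA2, ANXA5 or ANXA6. This gave 10 of the 26423 probes on the array, for 8 of the 10 genes, with 2 probes each for Capn3 and Anxa6. Dysf and Myof had no probe under these symbols or their RefSeq synonyms and were not analysed here.

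The membrane of muscle fibres can tear during contraction, and the fibre reseals the tear. Calcium entering through a tear draws vesicles and annexins to the wound, where annexins bind the exposed phospholipids and Trim72 gathers vesicles that patch the gap. Caveolae are small pits of the same membrane, built in muscle from the caveolin Cav3 with a coat of cavins, and they flatten when the membrane is stretched.

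The tibialis anterior, which lifts the foot, was taken from 8 mice aged 6 weeks, and its total RNA was put on 1-colour arrays. The mice were on a C57BL6/J;129S1/SvImJ background. The 4 control animals were Myf6 cre/+; Hira flox/+, and the 4 animals labelled Hira CKO (conditional knockout) were Myf6 cre/+; Hira flox/-. All 8 animals thus carried 1 copy of Myf6 cre, a driver of recombination in muscle fibres, and 1 floxed Hira allele. The second allele was intact in every cell of the controls and null in every cell of Hira CKO, so the groups also differ in cells without cre. Each animal was hybridised on 3 arrays, which repeat 1 RNA, and the animal was the replicate.

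The fibre markers Ckm, Acta1, Tnnt3, Des, Mb and Actn3 were bright on the arrays, with mean intensities of 51089 or more against array medians of 431.5 to 433.5. Hira, which encodes a histone H3.3 chaperone, read 569, 472, 467 and 473 in control animals 1 to 4 and 614, 553, 524 and 543 in Hira CKO animals 1 to 4. The Hira probe was not lower in Hira CKO (0.17 log2, SE 0.087, limma adjusted p 0.193). The sources used here do not place this probe inside or outside the deleted part, so the directions below rest on the labels. Values are normalized intensities, each animal being the mean of its arrays, and changes are Hira CKO minus control on the log2(intensity + 16) scale. A change was called at a limma adjusted p below 0.05, with Benjamini-Hochberg adjustment over all 26423 probes. In bulk muscle, fewer cells of a type and less RNA per cell cannot be told apart.

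Of the 10 member probes, 3 were lower in Hira CKO and 0 were higher. Over all probes 20.6% were called, 10% lower and 10.5% higher. At an unadjusted p below 0.05 there were 5 such probes, the other two being the brighter Capn3 probe (lower) and the dim Anxa6 probe (higher). An unmoderated test per probe with unequal variances, adjusted likewise, called 1, namely Cav3. That test called 9.87% of all probes. The share of all probes at an unadjusted p below 0.05 was not counted. The falls were in Cav3, to 54.0% of the control level, Anxa5, to 51.6%, and Trim72, to 78.0%. Cavin1, Capn3, Anxa1, Anxa2 and Anxa6 were not called at any probe. The groups did not overlap for 3 member probes that were lower and 1 that was higher, where 12% and 12.8% of all probes had such a gap. The median change was −0.094 log2 over the member probes and 0.012 log2 over all probes.

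**Figure D1:**
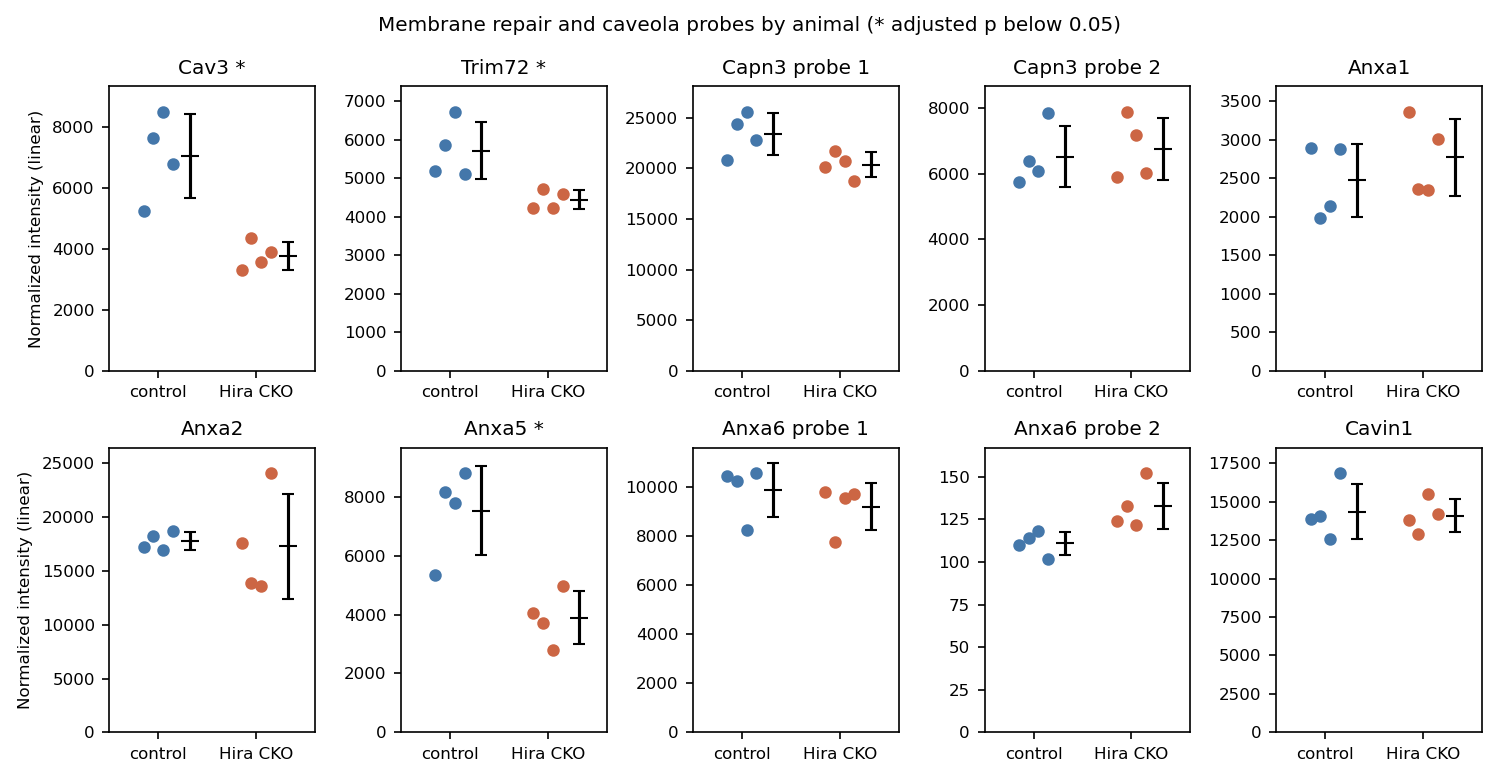
Normalized intensity on a linear axis from 0 for each member probe, with 1 point per animal and a bar for the mean and SD of 4 animals per group. The 4 Hira CKO animals lie between 3292 and 4360 for Cav3, all below the controls, while for Cavin1 the groups overlap.

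The promoter windows of the 3 called genes are shown with that of Cavin1, the caveola gene that was not called, so that the sequence at the start of each gene can be read beside its values. A window runs from 250 bases before the gene's start to 50 bases after it, as given by RefSeq on GRCm38.p6, and 7 of the 8 measured genes had one in the table used. Cavin1 and Capn3 had 2 windows each, of which the first listed was taken, and the second Cavin1 window, shifted along the same stretch, also held 0 E-boxes. Capitals mark the E-box, CANNTG, which reads alike on both strands and is bound by the myogenic factors of the MyoD family. The Cav3 window lies at chr6:112459255-112459554 on the plus strand, that of Anxa5 at chr3:36475838-36476137 on the minus strand, that of Trim72 at chr7:128004128-128004427 on the plus strand and that of Cavin1 at chr11:100970568-100970867 on the minus strand.
Cav3: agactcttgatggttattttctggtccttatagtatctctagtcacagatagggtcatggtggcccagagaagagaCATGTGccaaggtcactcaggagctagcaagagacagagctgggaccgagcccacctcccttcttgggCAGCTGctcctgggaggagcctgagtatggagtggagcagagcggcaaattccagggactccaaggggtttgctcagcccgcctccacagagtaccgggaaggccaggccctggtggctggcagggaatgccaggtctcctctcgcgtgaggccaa
Anxa5: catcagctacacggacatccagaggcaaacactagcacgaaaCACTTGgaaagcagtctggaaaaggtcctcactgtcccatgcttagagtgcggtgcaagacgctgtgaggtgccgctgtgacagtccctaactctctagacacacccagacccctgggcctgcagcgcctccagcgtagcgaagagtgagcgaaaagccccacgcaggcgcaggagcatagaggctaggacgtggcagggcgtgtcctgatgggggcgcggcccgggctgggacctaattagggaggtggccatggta
Trim72: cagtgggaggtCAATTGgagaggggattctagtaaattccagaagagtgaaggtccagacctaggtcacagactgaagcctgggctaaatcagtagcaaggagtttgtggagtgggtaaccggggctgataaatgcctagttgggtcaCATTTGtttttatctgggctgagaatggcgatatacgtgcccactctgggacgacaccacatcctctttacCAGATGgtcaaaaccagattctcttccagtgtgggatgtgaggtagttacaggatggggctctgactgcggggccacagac
Cavin1: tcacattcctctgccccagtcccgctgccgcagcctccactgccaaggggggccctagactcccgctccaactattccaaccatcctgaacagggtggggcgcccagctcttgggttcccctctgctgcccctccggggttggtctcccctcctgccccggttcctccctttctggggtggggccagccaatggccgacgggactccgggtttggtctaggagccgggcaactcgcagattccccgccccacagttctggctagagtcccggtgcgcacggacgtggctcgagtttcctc
The window of Cav3 held 2 E-boxes, that of Trim72 held 3, that of Anxa5 held 1 and that of Cavin1 held 0. The other genes that were not called did not share this count: the first listed Capn3 window held 2, one of them CAGCTG, with a MEF2 motif that 0.557% of all windows held, Anxa1 held 1 and Anxa2 held 0. The second Capn3 window held 2 E-boxes and 0 MEF2 motifs. An E-box is common: 72.3% of the 32851 windows in the table held at least 1. In Cav3 the letters CAGCTG stood at −106 to −101, counting the start as 0. The serum response factor motif known as CArG was found in the Anxa5 window at 25 to 34, and 1.63% of all windows held it. The first Trim72 E-box, at −239 to −234, overlaps a CCAAT motif read on the other strand, which 37.4% of all windows held. A match describes letters in the window and does not show that a factor binds there.

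Cav3 encodes the caveolin of muscle, without which fibres lack caveolae, and its mutations cause muscle disease in people. Its probe read 5245, 7621, 8484 and 6768 in control animals 1 to 4 and 3292, 4360, 3561 and 3885 in Hira CKO animals 1 to 4. The lowest control animal was above the highest Hira CKO animal. The mean was 7030 ± 1381 in controls and 3775 ± 460 in Hira CKO (SD, n = 4). The change was −0.89 log2 (SE 0.15, 95% interval −1.22 to −0.56) and its limma adjusted p was 0.00273. The exact permutation test (two-sided, 70 assignments of the animals) gave p = 0.0286, the smallest p this design can give. Single arrays ran from 4861 to 8779 in controls and from 2799 to 4645 in Hira CKO, so all 12 Hira CKO arrays were below the lowest control array. The gap between the groups was also seen in each of the 3 sets of array repeats taken alone. The SD was 0.15 log2 between arrays of an animal and 0.25 log2 between animals of a group. Of the 2649 probes called lower, 14.8% fell by as much as Cav3 or more.

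Cavin1 encodes the cavin that is needed with caveolin to form caveolae. It read 13864, 14092, 12575 and 16835 in the controls and 13826, 12864, 15469 and 14211 in Hira CKO. The animals of the groups lay in 1 range. The change was −0.025 log2 (95% interval −0.25 to 0.20, limma adjusted p 0.884), an interval that spans 84.2% to 115% of the control level. Per animal, the Cav3 change was lower than the Cavin1 change by 0.86 log2 (SE 0.23). The exact permutation p of that difference was 0.0286, or 0.0762 after adjustment over the 8 pairs of genes with the same role, a comparison added after the values were seen. The unequal change of the caveola pair therefore did not pass. Its groups did not overlap, and its unadjusted p was the smallest this design can give. The adjusted value thus cannot decide whether the changes differ.

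Annexins bind membrane phospholipids when calcium rises. Anxa5 binds exposed phosphatidylserine and assembles into flat arrays on membranes, which are known to help close tears. Its probe read 5352, 8175, 7797 and 8792 in control animals 1 to 4 and 4062, 3725, 2796 and 4972 in Hira CKO animals 1 to 4. The groups did not overlap, but control animal 1 stood close to the highest Hira CKO animal. The mean was 7529 ± 1509 in controls and 3889 ± 899 in Hira CKO (SD, n = 4). Anxa5 fell by 0.95 on the log2 scale (SE 0.19, 95% interval −1.38 to −0.53, limma adjusted p 0.00739). The exact permutation p was 0.0286. Among the 2649 probes called lower, 12.5% fell by as much as Anxa5 or more. The SD was 0.12 log2 between arrays of an animal and 0.33 log2 between animals. With array repeat 1 alone the groups overlapped, from 4362 to 8965 in controls and from 2760 to 5377 in Hira CKO, and the adjusted p was 0.0502. The groups were apart in repeats 2 and 3.

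Anxa2, which acts in a complex with the small protein S100a10, read 17212, 18211, 16911 and 18709 in the controls and 17586, 13832, 13635 and 24057 in Hira CKO. The Hira CKO animals lay on both sides of the controls, and their SD was 4872 against 841 in controls. The change was −0.080 log2 (95% interval −0.44 to 0.28, limma adjusted p 0.763), and it turned to 0.014 without Hira CKO animal 2 and to 0.019 without Hira CKO animal 3. Anxa1, known for limiting inflammation as well as for binding membranes, read 2889, 1980, 2141 and 2872 in the controls and 3358, 2355, 2351 and 3004 in Hira CKO. Its groups overlapped, with a change of 0.16 log2 (95% interval −0.18 to 0.51, limma adjusted p 0.491).

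Anxa6, a long annexin with a doubled core, had a bright and a dim probe. The bright probe read 10439, 10245, 8241 and 10539 in the controls and 9766, 7753, 9554 and 9693 in Hira CKO, a change of −0.11 log2 (95% interval −0.34 to 0.13, limma adjusted p 0.513). In each group 1 animal was low, control animal 3 and Hira CKO animal 2. The dim probe read 110, 114, 118 and 102 in the controls and 124, 133, 122 and 152 in Hira CKO. These groups did not overlap, yet the change of 0.24 log2 (SE 0.086) was not called (limma adjusted p 0.0762, exact permutation p 0.0286). Its SD was 0.24 log2 between arrays of an animal and 0.11 log2 between animals. The changes at both probes of Anxa6 differed by −0.35 log2 with an exact permutation p of 0.0857, or 0.114 after adjustment over the 2 genes with 2 probes. The table has no detection calls, so whether the dim probe measured a transcript is unknown.

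Among the annexins, the change of Anxa5 differed from that of Anxa1 by 1.12 log2 (SE 0.28), from Anxa2 by 0.87 (SE 0.17) and from the bright Anxa6 probe by −0.85 (SE 0.26). The first and second of these are Anxa1 or Anxa2 minus Anxa5, the third is Anxa5 minus Anxa6. Their exact permutation p values were 0.0286, 0.0286 and 0.0571, and the adjusted values were 0.0762, 0.0762 and 0.114. With 70 assignments of the animals and 8 pairs, none of the differences between genes passed. For the first and second differences the groups did not overlap, and the unadjusted p was the smallest this design can give. Their adjusted values thus cannot decide whether the changes differ.

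**Figure D2:**
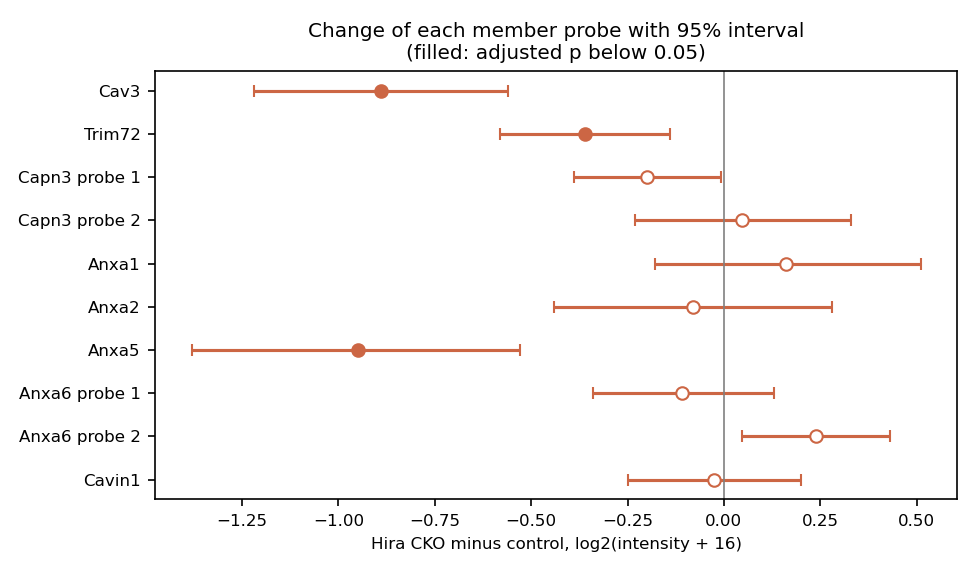
Change of each member probe, Hira CKO minus control on the log2(intensity + 16) scale, with its 95% interval from limma and filled points for adjusted p below 0.05. Cav3 at −0.89 and Anxa5 at −0.95 stand farthest from 0, and Trim72 at −0.36 is the third filled point.

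Trim72, also called MG53, is a muscle ubiquitin ligase that carries vesicles to membrane wounds and binds Cav3. Its probe read 5179, 5867, 6726 and 5116 in control animals 1 to 4 and 4231, 4718, 4235 and 4597 in Hira CKO animals 1 to 4. The groups did not overlap, with control animal 4 nearest to Hira CKO animal 2. The mean was 5722 ± 751 in controls and 4445 ± 250 in Hira CKO (SD, n = 4). Trim72 fell by 0.36 on the log2 scale (SE 0.098, 95% interval −0.58 to −0.14). Its limma adjusted p was 0.0290, and the exact permutation test gave p = 0.0286. Among the 2649 probes called lower, 73.9% fell by as much as Trim72 or more, and the median change was −0.48 log2. The call was lost without control animal 2 (adjusted p 0.0679), control animal 3 (0.0686), Hira CKO animal 1 (0.0768) or Hira CKO animal 3 (0.0654). With array repeat 1 alone the change was −0.53 log2, and with repeats 2 and 3 alone it was −0.30 and −0.24 and was not called.

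Capn3 is the calpain protease of skeletal muscle, whose loss causes a limb-girdle muscular dystrophy in people. Its brighter probe read 20789, 24350, 25563 and 22757 in the controls and 20164, 21732, 20698 and 18747 in Hira CKO. Control animal 1 lay within the range of Hira CKO. The change was −0.20 log2 (95% interval −0.39 to −0.0085) and was not called (limma adjusted p 0.127, unadjusted p 0.0423). The other probe read 5759, 6389, 6083 and 7851 in the controls and 5907, 7879, 7177 and 6012 in Hira CKO, a change of 0.048 log2 (adjusted p 0.815). The changes at both probes differed by −0.25 log2 with an exact permutation p of 0.114. Trim72 and Capn3 at its brighter probe differed in their changes by −0.16 log2 (SE 0.074, exact permutation p 0.0857, adjusted 0.137).

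**Figure D3:**
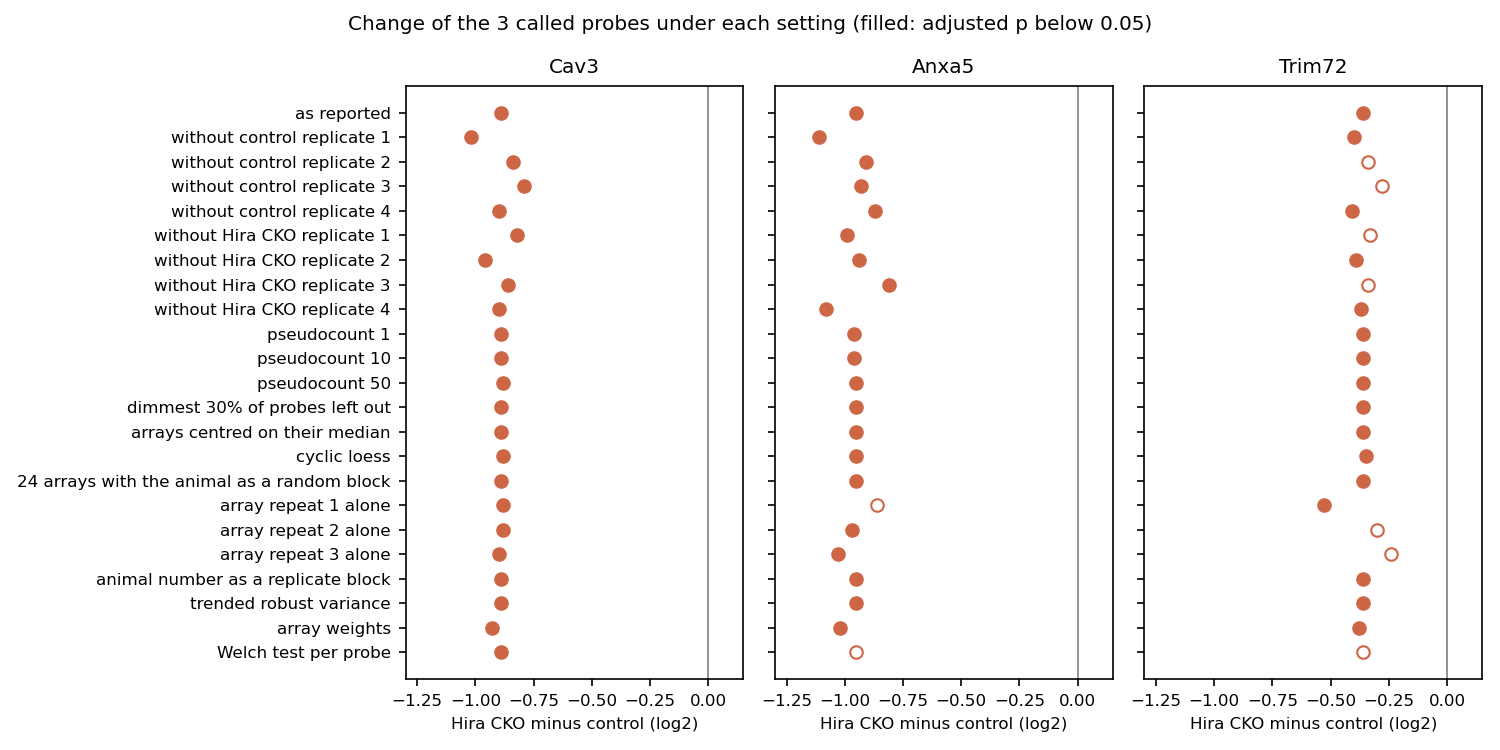
Change of Cav3, Anxa5 and Trim72 (Hira CKO minus control, log2) as reported and under 22 other settings, with filled points for adjusted p below 0.05. Cav3 is filled throughout, Anxa5 is open in 2 settings and Trim72 in 7.

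The genes whose values per animal lay nearest to those of Cav3 were Wdr1, Gga3, Rnf220, Spc25 and Lrit1. Likeness was the root mean square difference from Cav3 over the 8 animals, after subtracting each probe's control mean, among 20376 probes with a symbol. It was 0.11 log2 for Wdr1, an actin-disassembly factor, and for Gga3, an adaptor of vesicle sorting, 0.12 for Rnf220 and for Spc25, a kinetochore protein, and 0.13 for Lrit1. Wdr1 went from 4428 ± 790 to 2408 ± 315 and Gga3 from 1233 ± 155 to 691 ± 70.1 (SD, n = 4). Of the members, Anxa5 was nearest to Cav3, at 0.26 log2 and rank 279, followed by Trim72 at 0.40 and rank 1130. Cavin1 stood at 0.67 and rank 9415. Because only the control mean was subtracted, these distances include the difference in group change. The ranks therefore largely follow the size of the change.

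Other genes around caveolae were measured at the brightest probe of each gene. Over the 17778 named genes, 10.2% were called lower and 11% higher at this probe, and the median change was 0.0085 log2. Of 11 caveola genes outside the members, 3 were lower and 0 higher, with a median of −0.18 log2. Pacsin3, a membrane-bending F-BAR protein abundant in muscle, went from 31172 ± 4704 to 18260 ± 2796, a change of −0.78 log2 (limma adjusted p 0.00395). Its relative Pacsin2 fell by 0.27 on the log2 scale (adjusted p 0.0158), while the other Pacsin2 probe, at −0.19, was not called (adjusted p 0.118). Ehd1, an ATPase of endocytic recycling, went from 366 ± 77.4 to 103 ± 12.8, a change of −1.66 log2 (adjusted p 9.88e-05). The other cavins were not called: Cavin2 at −0.21, Cavin3 at −0.38 and Cavin4, the muscle cavin, at 0.075 log2. The caveolin genes Cav1 (0.18 log2) and Cav2 (−0.0030) and the neck protein Ehd2 (0.017) were not called either.

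A list of other ferlins and calpains, relatives of Dysf, Myof and Capn3, also held Capns1, the small calpain subunit, and Cast, the calpain inhibitor calpastatin. Of its 7 genes measured, 0 were lower and 0 higher by limma and 0 passed by the unmoderated test, while 1 had an unadjusted p below 0.05. Capn1, a calpain of most tissues, was at −0.27 log2 with an adjusted p of 0.0550. Of 11 other annexins and S100 partners, 1 was lower and 0 were higher. It was Anxa3, which went from 1255 ± 393 to 365 ± 39.8, a change of −1.74 log2 (adjusted p 3.41e-04). S100a10, the partner of Anxa2, changed by −0.043 log2 and was not called. Anxa7 changed by 0.50 log2 at its brighter probe and was not called (adjusted p 0.0985), while its other probe was higher by 1.20 (adjusted p 2.10e-04). Anxa10 likewise had 0.31 log2 at its brighter probe, not called, and −0.74 at the other (adjusted p 0.00426). Both were named after their values were seen.

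ESCRT proteins pinch off damaged membrane, and SNARE proteins fuse vesicles with it. They were listed with related genes such as Pdcd6 and Smpd1. Of the 13 genes of this list that were measured, 4 were lower and 0 higher, with a median of −0.048 log2. Vps4b, an ATPase that takes ESCRT filaments apart, went from 1810 ± 111 to 1173 ± 62.1, a change of −0.62 log2 (adjusted p 4.91e-04). Chmp4b, a filament subunit, fell by 0.40 on the log2 scale (adjusted p 0.00338), and Stx4a, a SNARE of the plasma membrane, fell by 0.41 (adjusted p 0.00670). Chmp1a fell by 0.31 (adjusted p 0.0282), but not in 6 of the 8 fits that each dropped an animal. Vps4a, the close relative of Vps4b, changed by 0.11 log2 and was not called. Pdcd6, a calcium sensor that recruits ESCRT proteins, changed by 0.069 log2 at its brighter probe and was not called, while its other probe was higher by 0.95 (adjusted p 0.00174), a gene named after its values were seen. Of 7 T-tubule genes 1 was lower, namely Jph2, which ties T-tubules to the calcium store, at −0.46 log2 (adjusted p 0.0140). The unmoderated test called 0 of these 7 genes and 3 of the 13 above. It called 3 of the 11 caveola genes and 1 of the 11 other annexins and S100 partners.

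**Figure D4:**
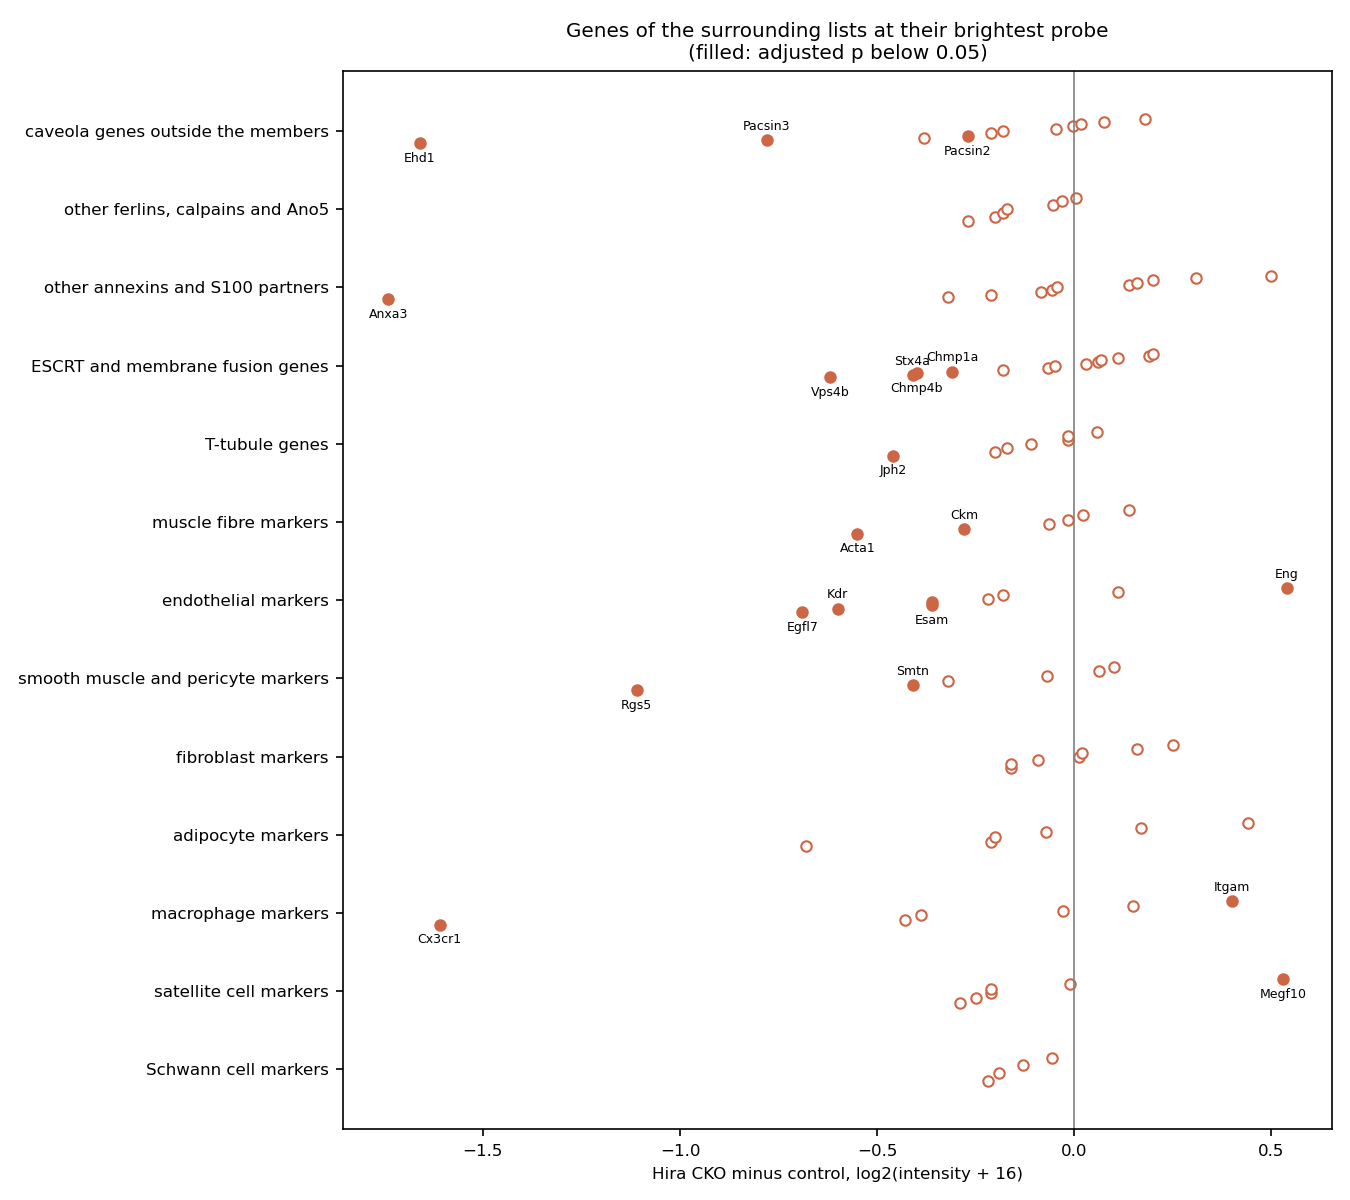
Change of each gene of the surrounding lists and marker lists at its brightest probe (Hira CKO minus control, log2(intensity + 16)), with filled points for adjusted p below 0.05. Among caveola genes Ehd1 at −1.66 and Pacsin3 at −0.78 are lowest, and Anxa3 at −1.74 is the lowest of the annexins.

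Some of these genes are also expressed by vessels, fibroblasts or immune cells, so markers of fibres and of other cells are given beside them. Over the 17778 named genes at the brightest probe, 10.2% were called lower and 11% higher. Of 6 measured fibre markers 2 were lower: Acta1, skeletal actin, at −0.55 log2 (adjusted p 0.00199) and Ckm, muscle creatine kinase, at −0.28 (adjusted p 0.0442). Des (0.14 log2), Mb (0.022), Tnnt3 (−0.015) and Actn3 (−0.063) were not called, nor was the other Mb probe, at 0.34 (adjusted p 0.0713). The median of the list was −0.039 log2. Ckm did not pass in 6 of the 8 fits that each dropped an animal. The summed intensity of the fibre markers ran from 928106 to 1088021 in controls and from 893855 to 952712 in Hira CKO, so the groups overlapped. Of 8 endothelial markers 4 were lower and 1 higher. Egfl7 was at −0.69 log2, Kdr at −0.60, and Eng at 0.54. Esam and Pecam1, each at −0.36, did not pass in 6 of the 8 fits. The 2 other probes of Pecam1, at −0.21 (adjusted p 0.253) and −0.22 (adjusted p 0.157), were not called. The endothelial sum ran from 52237 to 66547 in controls and from 38963 to 44946 in Hira CKO, without overlap. Much of this gap came from Egfl7, which went from 30882 ± 5196 to 19234 ± 3135 (SD, n = 4). Without it, a sum added after the values were seen, the range was 24212 to 28128 in controls and 21638 to 25165 in Hira CKO, and the groups overlapped. Tek (0.11 log2), Cdh5 (−0.18) and Vwf (−0.22) were not called. Of 6 smooth muscle and pericyte markers 2 were lower, Rgs5 at −1.11 log2 and Smtn at −0.41. Pdgfrb (0.10 log2), Cnn1 (0.064) and Tagln (−0.070) were not called, and the median of the list was −0.20. The sum of this list ran from 39858 to 51331 in controls and from 31471 to 38471 in Hira CKO. The call of Smtn was lost without control animal 2 or control animal 3. Much of the gap in this sum came from Smtn and Acta2. Smtn went from 19757 ± 1544 to 14881 ± 1753. Acta2, which was not called (adjusted p 0.274), went from 19496 ± 5237 to 15334 ± 2753. The other Acta2 probe, which is not in the sum, was at −0.020 log2 and was not called either (adjusted p 0.957).

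Of 7 fibroblast, 6 adipocyte and 4 Schwann cell markers 0 passed in limma or by the unmoderated test, and 1, 0 and 0 had an unadjusted p below 0.05. Over all named genes, 10.2% were called lower and 11% higher. Of 6 macrophage markers Cx3cr1 was lower (−1.61 log2) and Itgam higher (0.40, not passing in 6 of the 8 fits). Of 6 satellite cell markers Megf10 was higher (0.53). The other satellite cell markers were not called, with Pax7 and Calcr at −0.21, Cd34 at −0.25, Sdc4 at −0.29 and Vcam1 at −0.01 log2, and the median of that list was −0.21. The summed intensities of these 5 lists overlapped between the groups, and no measured marker of any list was at 0 in any animal. The unmoderated test called 1 fibre, 1 endothelial, 0 smooth muscle and pericyte, 1 macrophage and 2 satellite cell markers. It called 9.87% of all probes. The part of vessel and other cells in the changes of Cav3, Anxa5 and Trim72 was not tested.

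**Figure D5:**
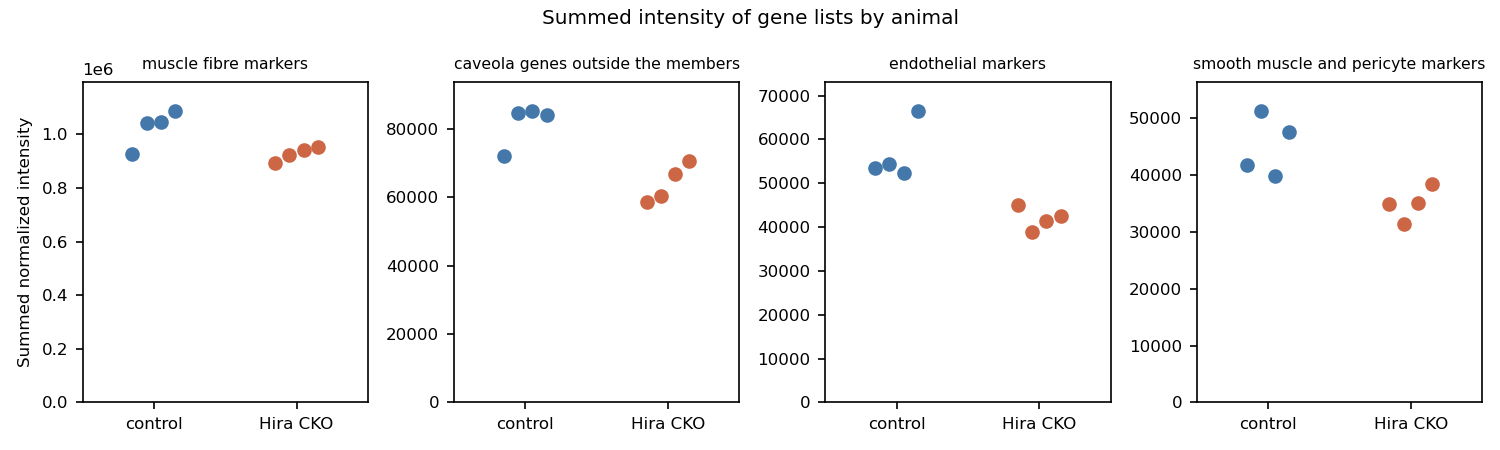
Summed normalized intensity per animal, on linear axes from 0, for fibre markers, caveola genes outside the members, endothelial markers and smooth muscle and pericyte markers. The caveola sum runs from 72110 to 85398 in controls and from 58735 to 70612 in Hira CKO, and the fibre marker sums overlap. Much of the caveola gap comes from Pacsin3, with means of 31172 in controls and 18260 in Hira CKO.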

How the data were processed

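Per the labels, 1-colour Cy5 arrays were run on tibialis anterior RNA of 8 mice, with 3 arrays for each. The deposited table gives a linear intensity for 26423 probes on 24 arrays. As judged from the deposited intensity values, the authors had subtracted background (50 values were at or below 0) and normalized between arrays (81.1% of values were multiples of 1/24 within 0.001). The sources used here name no software, build, slide or scan, so the groups and any array batch cannot be told apart. The number of animals limits the precision.

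Probes were named from the platform annotation (20377 probes) and symbols updated with RefSeq GRCm38.p6, used only for names, chromosomes and promoter windows. Values below 0 were set to 0, 16 was added, log2 was taken, and the 3 arrays of an animal were averaged. The group test was limma (version 3.58.1, R 4.3.3; lmFit, eBayes), with Benjamini-Hochberg adjustment over all probes. Single values and differences between probes were tested by exact two-sided permutation over 70 assignments. On simulated data for Hira CKO against control with 26423 probes, the share found was 50.7% for a change of 0.5 log2 (67 probes), 86.6% for 1 log2 (67 probes) and 100% for 2 log2 (66 probes). Of the 26223 unchanged probes 9 were called. Only 200 simulated probes changed, where 5432 were called in the data, so these shares describe that setting and not the sensitivity here.

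The members and lists were chosen with earlier results of these data known. All member probes are named, with up to 4 called genes of each list by size of change at the brightest probe, and the 5 genes nearest to Cav3. Pecam1, genes that were not called and second probes were named after their values were seen, as was the comparison of genes with the same role. Alternatives were each animal left out, other pseudocounts (1, 10 and 50), a filter on the dimmest 30% of probes, other normalizations, treatments of the arrays and variance models, the animal number as a replicate block, and an unmoderated test per probe with unequal variances (a Welch test).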

Additional observations from a re-analysis of the deposited data

Results flagged for a closer look

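The bright Anxa6 probe had 1 animal far below the other 3 of its group in both groups. Control animal 3 read 8241, where the other controls read 10245 to 10539, and Hira CKO animal 2 read 7753, where the others read 9554 to 9766. These were the flags among 20 groups of 4 values tested, and chance flags about 1 group in 20.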

How the results depend on the processing

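The count of member probes called lower was 3, and it was 2 or 3 in all other settings but the Welch test per probe, where it was 1 (Cav3). No setting gave a higher call. When each animal in turn was dropped the count lower ranged from 2 to 3 and the count higher was 0. Cav3 was called in 22 of 22 other settings (−1.02 to −0.79 log2), Anxa5 in 20 (−1.11 to −0.81, with adjusted p of 0.0502 for array repeat 1 alone and 0.0577 by the Welch test) and Trim72 in 15 (−0.53 to −0.24). With the animal number as a replicate block the count lower was 3 and the count higher 0. Deviations of animals with the same number correlated at 0.30, 0.093, −0.064 and 0.067 for numbers 1 to 4. Whether animals with the same number share more than the number was not tested. The block changed the probes called from 5432 to 4925.

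The probe differences ranged from −0.46 to −0.27 log2 for Anxa6 and from −0.35 to −0.17 for Capn3 when 1 animal was left out. Without control animal 3 the Anxa6 difference of −0.46 had an exact permutation p of 0.0286. Changes that were not called turned sign as follows. The second Capn3 probe was −0.0068 without control animal 1 and −0.031 without Hira CKO animal 2 (range −0.031 to 0.14 with 1 animal dropped). Cavin1 was 0.055 without control animal 4, 0.016 without Hira CKO animal 2 (range −0.085 to 0.055), and 0.012 and 0.081 with array repeats 1 and 2 alone. Anxa2 was 0.014 without Hira CKO animal 2 and 0.019 without Hira CKO animal 3 (range −0.25 to 0.019). The bright Anxa6 probe was 0.0011 with array repeat 1 alone and Anxa1 was −0.0033 with repeat 3 alone. Over all probes 5432 were called, 2848 to 3191 with a single array repeat, 2607 by the Welch test, 3680 without control animal 3, 6778 with array weights and 7254 with all 24 arrays and the animal as a random block. The cause of these differences was not tested. The median change over all probes moved by less than 0.1 log2 under each scaling.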
